A study of Mus musculus with 14 samples.

Results

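The genes described here encode, in the nucleus, the subunits of the 5 complexes of oxidative phosphorylation, and they were followed in fibro-adipogenic progenitors (FAPs), the mesenchymal stromal cells of skeletal muscle. Members were chosen by symbol alone: the Nduf a, b, c, s and v series, Sdha to Sdhd, and the symbols that begin with Uqcr, Cox4 to Cox8 or Atp5. Of 56981 genes listed in either deposited table, 98 matched. Of these, 87 are subunit genes, with 39 in complex I, 4 in complex II, 8 in complex III, 18 in complex IV and 18 in complex V. The other 11 are 10 pseudogenes or copies, such as Ndufb4c and Cox5b-ps, and a second record of Atp5o at 0. Complexes were assigned by symbol alone. Genes such as Ndufa4, Ndufa4l2, Cox7a2l and Atp5if1 are therefore counted as subunit genes of a complex that their symbol need not fit. The FAPs came from the TA muscle of mice with the genotype label SMA, taken to mean spinal muscular atrophy, and of WT mice, sorted with MACS (magnetic beads) 3 days after an injury and sequenced without culture. The injury was BaCl2 (3 SMA and 3 WT libraries) or glycerol (4 SMA and 4 WT libraries), 14 libraries in all. The sources used here do not give the SMA allele, the age of the mice or the surface markers of the sort. Each injury is also a batch of its own in the labels, and the effects of both cannot be told apart. Separate animals for the replicates are not stated, and all p-values therefore rest on the spread between samples that may be technical replicates.

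Oxidative phosphorylation takes place in the inner mitochondrial membrane. Complexes I and II pass electrons from NADH and succinate to ubiquinone, complex III passes them to cytochrome c, complex IV passes them to oxygen, and complex V, the ATP synthase, makes ATP from the proton gradient that complexes I, III and IV build. Most subunits are encoded in the nucleus and imported, the rest in the mitochondrial genome, and some subunits of complexes I and IV have isoforms restricted to muscle, testis or low oxygen. Mesenchymal progenitors are known to rely largely on glycolysis and to raise mitochondrial respiration when they turn into adipocytes.

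Between 97.7 M and 136 M counts (M, mega) stood behind each BaCl2 library, and the members took 0.476% to 0.537% of them. The glycerol values were deposited after normalization, so their depth is unknown, and the members took 0.51% to 0.573% of their sums. All 8 FAP markers of the list used here were present in both tables, among them Pdgfra at 714 to 1015 CPM (counts per M, scaled) in the SMA libraries and 822 to 940 CPM in the WT libraries after BaCl2, with overlap. After BaCl2, 2 of the 8, Ly6a and Lum, passed the test as lower in SMA, and the summed levels, most of them Col1a1, were 20649 to 29092 CPM in the SMA libraries and 31114 to 34613 CPM in the WT libraries, without overlap. The mean log2 level of the 8, which weighs each marker alike, did overlap. Relative to the WT mean it was 0.019 in SMA library 2 and -0.095 in WT library 3. The log2 fold change was below 0 for 6 of the 8, and the highest was 0.45. After glycerol none of the 8 passed with limma, and none had an unadjusted p under 0.05. Of all genes, 4.29% passed after BaCl2 and 2.87% after glycerol. Markers of other cell types also differed by genotype, macrophage markers among them. Of 10, 9 passed the test as higher in SMA after BaCl2, with summed levels of 1771 to 2756 CPM in the SMA libraries and 1006 to 1378 CPM in the WT libraries. After glycerol 3 of 10 passed as higher, with summed levels of 109194 to 268800 normalized counts in the SMA libraries and 97342 to 127244 normalized counts in the WT libraries. No macrophage marker was at 0. Of 3 Schwann cell markers, 1 passed as higher in SMA after BaCl2, with sums of 10.7 to 16.3 CPM in the SMA libraries and 4.99 to 7.55 CPM in the WT libraries, and none of the 2 tested passed after glycerol. Of 5 endothelial markers, 1 passed as lower in SMA after glycerol, with sums of 5852 to 7729 normalized counts in the SMA libraries and 8825 to 12946 normalized counts in the WT libraries, and none passed after BaCl2. No other marker list used here (myofibre, satellite cell, adipocyte, brown or beige fat, neutrophil) had a member past the threshold. At an unadjusted edgeR p under 0.05, 2 of 3 neutrophil markers were higher and 1 of 2 adipocyte markers was lower after BaCl2. At an unadjusted limma p under 0.05 after glycerol, 2 of 2 adipocyte markers (log2 fold changes 1.83 and 1.96) and 1 of 1 brown or beige fat marker were higher. There 1 of 3 neutrophil markers was lower. These are bulk samples, in which fewer cells of a type and less RNA per cell cannot be told apart, and the part of these markers in the results on subunits was not tested.

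After BaCl2, most subunit genes had fold changes just below 0 in the SMA libraries, and a single gene, Ndufa1, passed the test. Of 91 members tested, 1 was lower (Ndufa1) and 0 were higher at an adjusted p under 0.05 with edgeR's quasi-likelihood test, where 4.29% of all genes passed, 2.73% as higher and 1.56% as lower. The median log2 fold change, SMA minus WT, of the 83 subunit genes tested was -0.084, against -0.0028 over all 20119 genes. The fold change was below 0 for 65 of 83, where 50.6% of all genes were below 0. At an unadjusted p under 0.05, 13 subunit genes were lower and 0 were higher, where 9.58% of all genes were lower and 9.67% were higher. In 20 of 83 the SMA libraries all lay below the WT libraries, where 13.1% of all genes did so, and in 1 (Sdhb) they all lay above, where 12.2% did. The 7 members with too few counts to be tested were Cox7b2, Cox8b, Cox8c, Ndufb11b and 3 pseudogenes or second records.

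After glycerol most subunit genes again had fold changes just below 0, and the gene that passed was another, Uqcrq of complex III. Of the 98 members, 83 are in the glycerol table, and all 83 were tested with limma. Of these, 1 was lower (Uqcrq) and 0 were higher, where 2.87% of all genes passed, 1.7% as higher and 1.17% as lower. The median log2 fold change of the 82 subunit genes tested was -0.058, against -2.0e-05 over all 14330 genes, and 63 of 82 were below 0, where 50% of all genes were. At an unadjusted p under 0.05, 15 were lower and 1 (Cox7a2l) was higher, where 11% of all genes were lower and 12.3% were higher. In 14 of 82 the SMA libraries all lay below the WT libraries, where 7.54% of all genes did, and in 0 they all lay above, where 6.59% did.

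The differences were small and most were bounded narrowly. After BaCl2 the 95% interval of the fold change lay within 1.2-fold either way for 43 of 83 subunit genes (22.1% of all genes) and within 1.5-fold for 80 of 83 (52.8% of all genes). The 3 exceptions at 1.5-fold were Cox4i2, Cox6a2 and Cox6b2, which were expressed at a low level. After glycerol the interval lay within 1.2-fold for 68 of 82 (31% of all genes) and within 1.5-fold for 79 of 82 (69% of all genes).

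**Figure D1:**
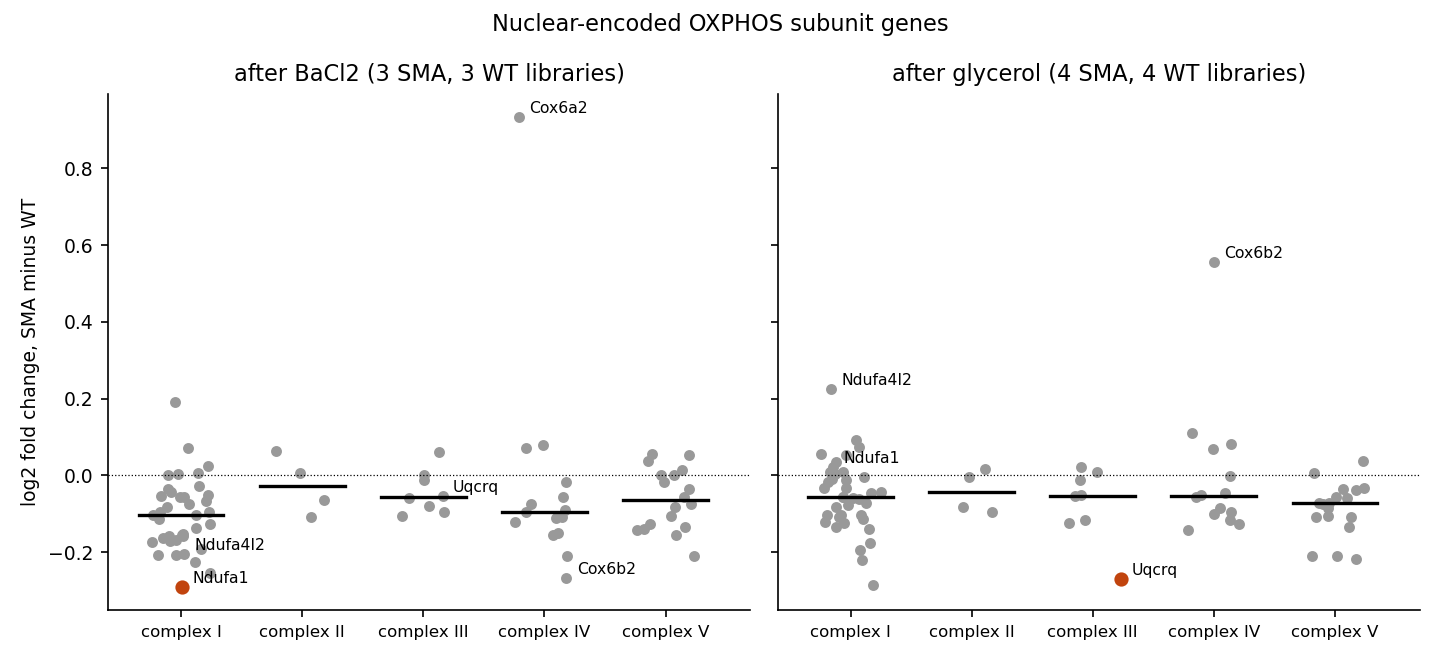
Log2 fold changes (vertical axis, SMA minus WT) of the subunit genes tested after BaCl2 (left) and glycerol (right), 1 point per gene, in columns by complex. Red points passed an adjusted p under 0.05 (Ndufa1 after BaCl2, Uqcrq after glycerol), black lines are medians, and the median of every complex lies below 0 after both injuries.

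By complex, the medians after BaCl2 were -0.10 in complex I, -0.029 in complex II, -0.056 in complex III, -0.096 in complex IV and -0.064 in complex V. After glycerol they were -0.057 in complex I, -0.043 in complex II, -0.053 in complex III, -0.055 in complex IV and -0.073 in complex V. Single libraries moved these values. The mean log2 level of all subunit genes, relative to the WT mean, was -0.024, -0.098 and -0.103 in SMA libraries 1 to 3 after BaCl2 and 0.025, 0.040 and -0.066 in WT libraries 1 to 3. SMA library 1 thus lay above WT library 3 and the groups overlapped. SMA library 1 also had the most macrophage transcript (2756 CPM over the 10 markers) and the lowest summed FAP markers (20649 CPM). After glycerol the level was -0.036, -0.058, -0.094 and -0.0256 in SMA libraries 1 to 4 and 0.0087, -0.0253, -0.00073 and 0.017 in WT libraries 1 to 4. These groups touched without overlapping, with SMA library 4 just below WT library 2. SMA library 3, the lowest, held 109194 normalized counts over the 10 macrophage markers, inside the range of the WT libraries. The other SMA libraries held 197706 to 268800.

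**Figure D2:**
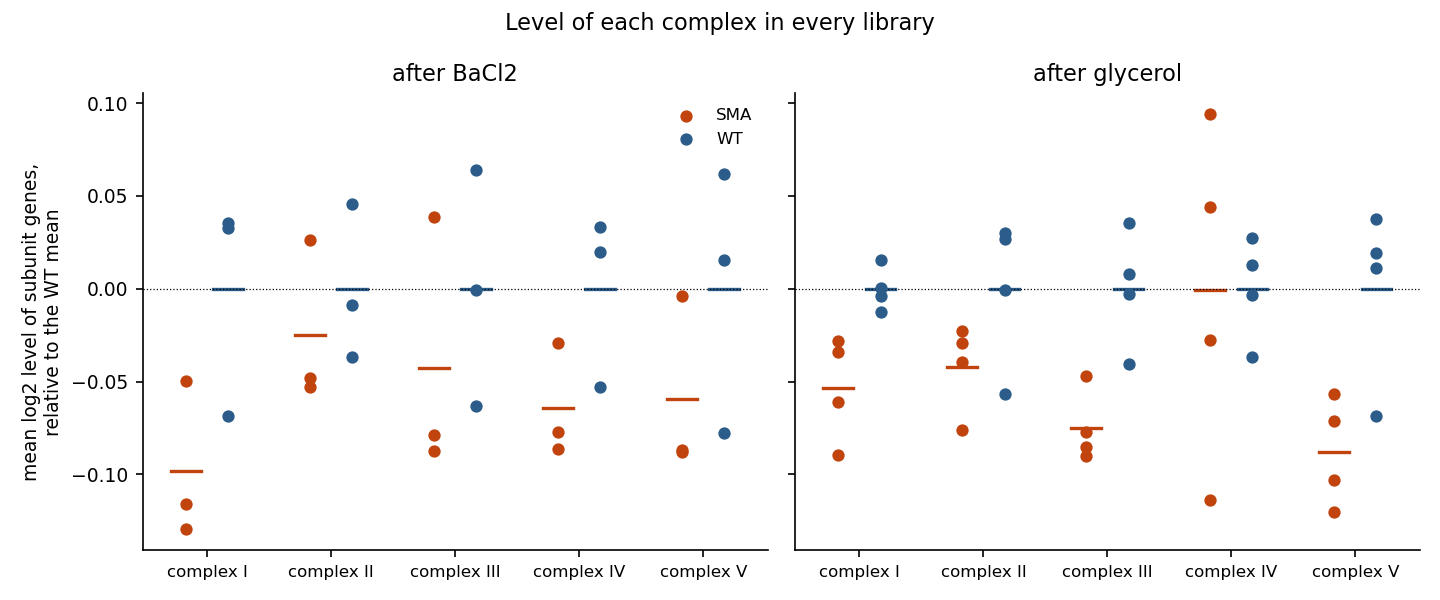
Mean log2 level of the subunit genes of each complex (vertical axis, relative to the WT mean of the same injury) in every library, SMA in red left of WT in blue, with bars at the group means. After BaCl2 the groups overlap in every complex, and after glycerol all 4 SMA libraries of complexes I and III lie below all 4 WT libraries.

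RefSeq promoter windows (GRCm38.p6, 250 bases before to 50 after the start of the gene) were at hand for 70 of the 87 subunit genes. They were searched on both strands for the core motifs of 3 factors known to act on respiratory genes. Each motif was searched on its own, so a gene can be counted for several. The palindromic core motif of NRF1 was found in 18 of 70 (25.7%), against 5.19% of all 27025 genes with a window. The YY1 motif AAGATGGCG was found in 7 (10%), against 1.64%, and the ETS motif CCGGAAGT, which GABP binds, in 5 (7.14%), against 4.31%. At least 1 of the 3 was in 28 (40%) of the subunit genes and in 10.3% of all genes. Genes with the NRF1 motif had a median log2 fold change of -0.078 after BaCl2 and -0.066 after glycerol (n = 18), and the 40 tested genes with a window and none of the motifs had -0.077 after BaCl2 and -0.058 after glycerol. The stretches below belong to members whose values are given further on. Each ends before the 5′ end of the gene in GENCODE vM21 or the RefSeq start, whichever lies further upstream. They are on the minus strand in GRCm38.p6, at chrX:37191239-37191338 (Ndufa1), chr16:37654454-37654573 (Ndufb4), chr13:74350281-74350380 (Sdha), chr10:80406831-80406930 (Uqcr11) and chr5:115348982-115349111 (Cox6a1). They are shown to let motifs be read in place, and do not span the whole window. Capitals mark the NRF1 motif in Ndufb4, Sdha and Cox6a1 and the ETS motif in Uqcr11, and Ndufa1 holds none of the 3 in its window. Further NRF1 motifs that the stretches leave out begin at -79 and -22 in Ndufb4, at -10 in Sdha and at -162 in Cox6a1, in bases from the RefSeq start.
Ndufa1: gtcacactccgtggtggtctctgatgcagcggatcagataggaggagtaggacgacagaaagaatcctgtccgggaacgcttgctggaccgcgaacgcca
Ndufb4: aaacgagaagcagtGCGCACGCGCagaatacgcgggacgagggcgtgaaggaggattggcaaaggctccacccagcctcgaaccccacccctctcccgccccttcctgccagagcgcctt
Sdha: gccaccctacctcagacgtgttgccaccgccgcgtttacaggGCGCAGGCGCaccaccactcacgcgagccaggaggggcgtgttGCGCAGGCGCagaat
Uqcr11: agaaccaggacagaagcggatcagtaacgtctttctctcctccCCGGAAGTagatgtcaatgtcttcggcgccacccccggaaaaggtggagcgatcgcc
Cox6a1: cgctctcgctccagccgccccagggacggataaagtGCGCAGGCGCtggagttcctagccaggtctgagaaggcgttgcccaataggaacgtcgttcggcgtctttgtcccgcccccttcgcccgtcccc

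Complex I held the member that fell after BaCl2. Ndufa1, a small accessory subunit encoded on the X chromosome and needed for assembly of the membrane arm, was at 19.0, 17.2 and 18.03 CPM in the SMA libraries and 21.3, 22.8 and 22.2 CPM in the WT libraries. All 3 SMA libraries lay below all 3 WT libraries, at 81.8% of the WT mean. Ndufa1 fell by 0.29 on the log2 scale (SE 0.07, edgeR adjusted p = 0.0499). This call stood at the threshold: the adjusted p was 0.0532 to 0.209 without each library in turn, 0.0541 with RLE factors and 0.0174 with DESeq2, and the fold change stayed between -0.32 and -0.25 without each library in turn. After glycerol Ndufa1 was at 2061, 1963, 1793 and 2035 normalized counts in the SMA libraries and 1874, 1963, 1891 and 1995 normalized counts in the WT libraries, and the groups overlapped. The log2 fold change there was 0.022 (SE 0.06, adjusted p = 0.859) with limma.

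The nuclear-encoded core of complex I, the 7 subunits that carry out electron transfer, had no member past the threshold in either comparison, with medians of -0.053 after BaCl2 and -0.082 after glycerol. Ndufv1, the subunit that binds NADH, stood at a log2 fold change of -0.068 (SE 0.06, adjusted p = 0.575) after BaCl2 with edgeR and -0.10 (SE 0.05, adjusted p = 0.224) after glycerol with limma. Ndufs1, the largest iron-sulfur subunit, stood at 0.00057 after BaCl2 with a 95% interval of -0.14 to 0.14, and at -0.082 after glycerol with an interval of -0.21 to 0.043.

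The accessory subunits of complex I surround the core. As grouped by symbol, with Ndufa4 and Ndufa4l2 among them, they had a median of -0.14 over the 31 tested after BaCl2, with 28 below 0. After glycerol the median was -0.046 over the 31 tested, with 22 below 0. Core and accessory subunits were not tested against each other. Ndufa2, an accessory subunit of the NADH-oxidising arm, was at 26.0, 23.6 and 24.4 CPM in the SMA libraries and 28.0, 29.5 and 27.9 CPM in the WT libraries after BaCl2, without overlap, and its log2 fold change of -0.21 (SE 0.07, adjusted p = 0.12) did not pass. Ndufb4, of the membrane arm, was at 491, 466, 504 and 496 normalized counts in the SMA libraries and 617, 555, 590.3 and 628 normalized counts in the WT libraries after glycerol, again without overlap, at -0.29 (SE 0.08, adjusted p = 0.0743). The levels of Ndufb4 are uncertain, because reads may be shared with its processed pseudogene Ndufb4c, which stood at 0.294, 0.191 and 0.232 CPM in SMA and 0.491, 0.329 and 0.347 CPM in WT libraries after BaCl2 but at 818, 898, 853 and 874 normalized counts in the SMA libraries and 957, 998, 1007 and 878 normalized counts in the WT libraries after glycerol.

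Ndufa4 carries the name of a complex I gene and was counted there, but is now known as a subunit of complex IV. It was at 68.8, 66.5 and 63.6 CPM in the SMA libraries and 76.4, 76.8 and 70.2 CPM in the WT libraries after BaCl2 and at 5209, 4629.8, 5177 and 4505 normalized counts in the SMA libraries and 5758, 5698, 5732 and 5514 normalized counts in the WT libraries after glycerol. The groups were apart in both, with SMA lower, at -0.17 (SE 0.06, adjusted p = 0.171) after BaCl2 and -0.22 (SE 0.06, adjusted p = 0.0707) after glycerol, and neither passed. The glycerol fit without SMA library 3 passed a larger share of all genes (given in the closing section), here and for the genes below. In that fit the adjusted p of Ndufa4 was 0.0305 with limma, and without each of the other libraries in turn it was 0.0914 to 0.182. Its paralogue Ndufa4l2, which low oxygen induces through HIF-1, was at 20.9, 27.6 and 23.2 CPM in the SMA libraries and 34.3, 21.9 and 26.5 CPM in the WT libraries after BaCl2. After glycerol it varied widely between libraries, at 4373, 4756, 2053 and 9097 normalized counts in the SMA libraries and 3500.2, 4392, 2922 and 4640.2 normalized counts in the WT libraries. SMA library 4 held the highest value and SMA library 3 the lowest, so the groups overlapped, and the fold change of 0.22 (SE 0.38, adjusted p = 0.76) had an interval of -0.63 to 1.08. As a share of the summed level of both genes, not scaled by transcript length, Ndufa4l2 stood at 26.5% ± 3.02 in SMA and 26.9% ± 4.43 in WT libraries after BaCl2 (SD, n = 3 each), and at 47.9% ± 15.8 in SMA and 40.2% ± 5.43 in WT libraries after glycerol (SD, n = 4 each).

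Complex II, which is also the succinate dehydrogenase of the citric acid cycle and has no mitochondrially encoded subunit, had the median closest to 0 of the 5 complexes after both injuries. None of its 4 members passed in either comparison, and all 4 intervals lay within 1.2-fold after both injuries. Sdha, the flavoprotein that oxidises succinate, was at 225, 215 and 211 CPM in the SMA libraries and 209.8, 226 and 212 CPM in the WT libraries after BaCl2, with overlap, and its log2 fold change was 0.0056 with an interval of -0.12 to 0.13. After glycerol it was at 14909, 14634, 15232 and 14282 normalized counts in the SMA libraries and 16233, 15217, 15931 and 15749.8 normalized counts in the WT libraries, at -0.096 (SE 0.04, adjusted p = 0.194). Sdhb, the iron-sulfur subunit, was at 49.8, 45.65 and 46.6 CPM in the SMA libraries and 44.8, 45.5 and 45.58 CPM in the WT libraries after BaCl2. Its SMA libraries lay just above its WT libraries, at 0.064 (SE 0.06, adjusted p = 0.629). The membrane anchors lay on the other side of 0 without a pass, Sdhc at -0.11 (SE 0.06, adjusted p = 0.367) and Sdhd at -0.064 (SE 0.06, adjusted p = 0.625) after BaCl2. After glycerol Sdhb, Sdhc and Sdhd stood at 0.015, -0.083 and -0.0038 on the log2 scale, with no pass.

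Complex III held the member that fell after glycerol. Uqcrq, a small subunit near the ubiquinone sites, was at 2379, 2331, 2512 and 2414 normalized counts in the SMA libraries and 3037, 2804, 2978 and 2814 normalized counts in the WT libraries. The 4 SMA libraries lay below the 4 WT libraries, at 82.8% of the WT mean. Uqcrq fell by 0.27 on the log2 scale (SE 0.05, limma adjusted p = 0.0353). Without each library in turn the adjusted p was 0.011 to 0.113, and it passed in 1 of these 8 fits, the one without SMA library 3. In the others it was 0.0605 to 0.113, and it was 0.0641 without the mean-variance trend. After BaCl2 Uqcrq was at 39.1, 31.9 and 31.3 CPM in the SMA libraries and 35.7, 37.1 and 33.4 CPM in the WT libraries, where SMA library 1 was the highest of the 6, and the fold change was -0.054 (SE 0.09, adjusted p = 0.815). The catalytic and core subunits of complex III lay near 0. Uqcrfs1, the Rieske iron-sulfur protein, stood at 0.061 after BaCl2 (interval -0.072 to 0.19) and 0.021 after glycerol (interval -0.10 to 0.14). Uqcrc1, a core protein, stood at -0.00054 (interval -0.15 to 0.15) and -0.011 (interval -0.15 to 0.13). Among the other small subunits, Uqcr11 was at 1719, 1721, 1692 and 1751 normalized counts in the SMA libraries and 1831, 1766, 2037 and 1878 normalized counts in the WT libraries after glycerol without overlap, at -0.12 (SE 0.06, adjusted p = 0.235). Uqcrb stood at -0.096 (SE 0.07, adjusted p = 0.532) and Uqcrh, the hinge protein that meets cytochrome c, at -0.11 (SE 0.06, adjusted p = 0.383) after BaCl2, both with overlap.

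Complex IV, cytochrome c oxidase, had no member past the threshold after either injury, of 15 tested after BaCl2 and 14 after glycerol. Cox6c, a small structural subunit, came closest after BaCl2, at 78.9, 75.7 and 81.7 CPM in the SMA libraries and 94.9, 94.99 and 83.8 CPM in the WT libraries. After glycerol it was at 7643, 7269, 7968 and 7149 normalized counts in the SMA libraries and 8260.2, 8309, 8032 and 8495 normalized counts in the WT libraries. The SMA libraries lay below the WT libraries after both injuries, at -0.21 (SE 0.07, adjusted p = 0.115) after BaCl2 and -0.14 (SE 0.05, adjusted p = 0.12) after glycerol. Without SMA library 3 the glycerol adjusted p was 0.0451 with limma, and without each of the other libraries in turn it was 0.173 to 0.268. Cox7b, another small subunit, was at 58.4, 54.0 and 56.8 CPM in the SMA libraries and 59.8, 67.3 and 61.3 CPM in the WT libraries after BaCl2 without overlap, at -0.16 (SE 0.07, adjusted p = 0.232). Cox4i1, the ubiquitous isoform of the regulatory subunit 4, was at 161, 154 and 157 CPM in the SMA libraries and 174, 173 and 162 CPM in the WT libraries after BaCl2, where SMA lay below WT, and the fold change was -0.11 (SE 0.06, adjusted p = 0.321). After glycerol it was -0.0025 with an interval of -0.11 to 0.10. Cox5a, a subunit bound to Cox4i1, stood at 0.072 (SE 0.09, adjusted p = 0.718) after BaCl2 and -0.12 (SE 0.06, adjusted p = 0.258) after glycerol. Cox6a1, the ubiquitous isoform of subunit 6a, stood at -0.096 (SE 0.07, adjusted p = 0.481) and -0.13 (SE 0.05, adjusted p = 0.167).

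The tissue-restricted isoforms of complex IV were low or absent, and in the FAPs the ubiquitous isoforms made up nearly all of the Cox4i and Cox7a pairs, on levels not scaled by transcript length. Cox4i2, the isoform of lung and of low oxygen, was at 1.26, 1.25 and 1.28 CPM in the SMA libraries and 1.74, 0.752 and 1.58 CPM in the WT libraries after BaCl2, which is 0.798% ± 0.0154 of the sum of Cox4i1 and Cox4i2 in SMA and 0.797% ± 0.316 in WT libraries (SD, n = 3 each). The muscle isoform Cox7a1 was at 1.25, 1.19 and 1.11 CPM in the SMA libraries and 1.16, 1.18 and 1.03 CPM in the WT libraries, which is 3.32% ± 0.094 of the sum of Cox7a1 and Cox7a2 in SMA and 2.99% ± 0.108 in WT libraries. After glycerol Cox7a1 stood at 3.51% ± 0.99 of that sum in SMA and 3.17% ± 0.551 in WT libraries (SD, n = 4 each). The muscle isoform Cox6a2 was at 0.353, 0.177 and 0.155 CPM in the SMA libraries and 0.103, 0.225 and 0.0302 CPM in the WT libraries, with overlap, and its log2 fold change of 0.93 (SE 0.68, adjusted p = 0.511) had an interval of -0.57 to 2.44. Cox8b, also of heart and muscle, had 2, 4 and 2 counts in the SMA libraries and 0, 1 and 0 counts in the WT libraries and was not tested. The testis isoforms Cox7b2 and Cox8c had 0 counts in every BaCl2 library, which allows up to 3 counts in each, and Cox6b2, also of testis, was at 0.509, 0.751 and 0.804 CPM in the SMA libraries and 1.14, 0.614 and 0.739 CPM in the WT libraries. After glycerol Cox6b2 was at 55.2, 83.7, 58.8 and 124 normalized counts in the SMA libraries and 45.60, 59.1, 49.3 and 53.0 normalized counts in the WT libraries, with SMA library 4 highest and overlap between the groups, at 0.56 (SE 0.27, adjusted p = 0.246).

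Complex V supplied the most abundant members. Per length, Atp5f1b, the catalytic beta subunit, was the highest subunit gene, at 380 CPM per kilobase of transcript in SMA and 371 CPM per kilobase in WT libraries after BaCl2. On the same scale Cox4i1 stood at 208 in SMA and 225 in WT libraries, and Ndufa1 at 43.1 in SMA and 52.7 in WT libraries. Atp5f1b was at 779, 707 and 699 CPM in the SMA libraries and 698, 737 and 696 CPM in the WT libraries after BaCl2, with overlap, at 0.036 (SE 0.06, adjusted p = 0.823). After glycerol it was at 48227, 47065, 48020.0 and 46396 normalized counts in the SMA libraries and 54755, 51024, 58312 and 55510.1 normalized counts in the WT libraries. All 4 SMA libraries lay below all 4 WT libraries there, at -0.21 (SE 0.05, limma adjusted p = 0.0555), which missed the threshold. The adjusted p was 0.0363 without SMA library 3 and 0.0603 to 0.155 without each of the other libraries in turn. Atp5f1a, the alpha subunit of the same head, stood at 0.057 (SE 0.06, adjusted p = 0.653) after BaCl2 and -0.11 (SE 0.04, adjusted p = 0.18) after glycerol. Atp5mc1, 1 of 3 genes for the proton-carrying c subunit, was at 3262, 3031, 3354 and 3093 normalized counts in the SMA libraries and 3744, 3458, 3891 and 3716 normalized counts in the WT libraries after glycerol, without overlap, at -0.22 (SE 0.06, adjusted p = 0.0679). For Atp5mc1 the limma adjusted p was 0.0312 without SMA library 3 and 0.0739 to 0.175 without each of the other libraries in turn. After BaCl2 its groups overlapped, at -0.017. Atp5f1e, of the central stalk, was at 41.2, 41.5 and 38.4 CPM in the SMA libraries and 47.7, 49.8 and 42.6 CPM in the WT libraries after BaCl2, without overlap, at -0.21 (SE 0.07, adjusted p = 0.142). Atp5mf, of the membrane part, was lower in all 3 SMA libraries too, at -0.14 (SE 0.06, adjusted p = 0.205).

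**Figure D3:**
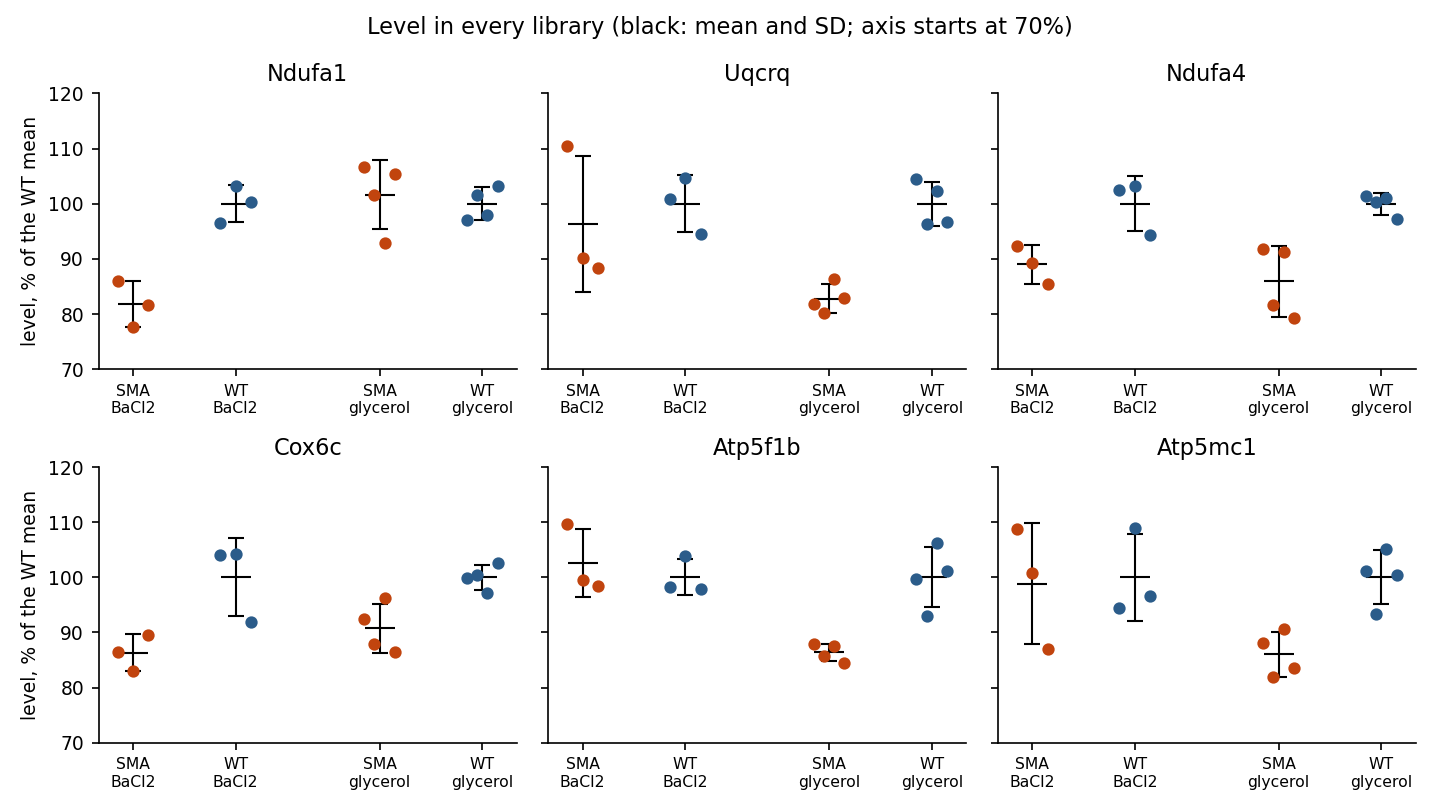
Level of 6 members in every library as a percentage of the WT mean of the same injury (vertical axis, starting at 70%), SMA in red left of WT in blue, with the mean and SD in black. Ndufa1 is separated after BaCl2 only, Uqcrq, Atp5f1b and Atp5mc1 after glycerol only, and Ndufa4 and Cox6c after both.

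In the authors' deposited table for BaCl2, Ndufa1 was likewise the subunit gene with an adjusted p under 0.05 (1 of 79 with an adjusted p, lower in SMA), where 6.04% of all genes were lower and 7.74% higher. In the authors' deposited table for glycerol, 6 of 82 were lower (Atp5f1b, Atp5mc1, Ndufa4, Ndufb2, Ndufb4 and Uqcrq) and 0 were higher, where 5.21% of all genes were lower and 7.28% higher.

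Between the injuries, the genotype effect was compared as glycerol minus BaCl2. Of 83 members tested, 0 passed, where 3.8% of all genes did (1.88% above 0 and 1.92% below). At an unadjusted p under 0.05, 3 were below 0 and 6 above, where 10.1% and 11.4% of all genes were. The z form of the test, which makes no allowance for the few libraries, passed 3 (Ndufa1, Cox7a2l and Atp5f1b). Its share over all genes is not given here, so the 3 are not read as a result on the members. The values that follow are from the t form. Ndufa1 stood at 0.31 (SE 0.09, adjusted p = 0.0618), Cox7a2l at 0.23 (SE 0.08, adjusted p = 0.0878) and Atp5f1b at -0.25 (SE 0.08, adjusted p = 0.0843). Cox7a2l, which joins complexes III and IV into supercomplexes, was at 86.3, 87.8 and 94.6 CPM in the SMA libraries and 94.2, 99.8 and 98.5 CPM in the WT libraries after BaCl2. It was at 7697, 7960.2, 7071 and 7477 normalized counts in the SMA libraries and 6754, 7034, 6987 and 7188 normalized counts in the WT libraries after glycerol, so the genotypes overlapped in both and stood in opposite order. Of 82 subunit genes tested after both injuries, 51 were below 0 in both, where 27.3% of all genes were, 14 after BaCl2 only, 12 after glycerol only and 5 in neither. Most subunit genes lay below 0 after each injury taken alone. Many would therefore lie below 0 in both even if the injuries were unrelated. The genes that stood lowest differed between the injuries: across the 82 genes, Spearman's rho between the fold changes was -0.14, given as a description, against 0.12 over all 13960 genes tested in both. The libraries of the injuries are separate, but the genes of an injury share its libraries.

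**Figure D4:**
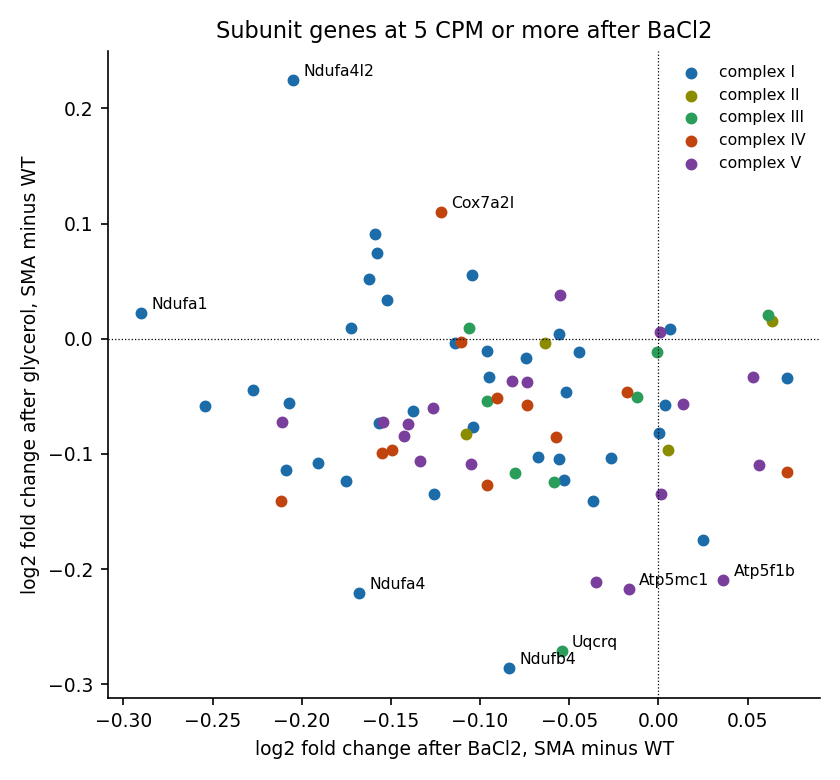
Log2 fold change after glycerol (vertical axis) against that after BaCl2 (horizontal axis), SMA minus WT, for subunit genes at 5 CPM or more in the WT libraries after BaCl2, coloured by complex. Most points lie in the lower left, where both are below 0, while Ndufa1 is lowest after BaCl2 and Ndufb4 and Uqcrq are lowest after glycerol.

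Subunit genes share short transcripts. Their median transcript length in GENCODE vM21 was 724 bases over 86 genes, against 2674 bases over the protein-coding genes tested after BaCl2, and 60 of 86 were under 1000 bases, against 8.13%. After BaCl2 the 57 subunit genes tested with short transcripts had a median log2 fold change of -0.096 and the 25 with longer ones -0.027. All 1219 genes tested with short transcripts had a median of -0.064 after BaCl2 and the 13774 with longer ones 0.00087, so the median of short genes of any kind also lay below 0. Of these 1219, 63.7% were below 0, and 186 were lower and 84 higher at an unadjusted edgeR p under 0.05. In 257 all SMA libraries lay below all WT libraries, and in 99 above. Of the 57 short subunit genes, 48 were below 0, 10 were lower and 0 higher. All SMA libraries lay below in 13 of the 57 and above in 0. After glycerol the subunit genes with short and longer transcripts had medians of -0.057 and -0.077, and all genes with short and longer transcripts had -0.0048 and 0.0002. Spearman's rho between fold change and length over the subunit genes was 0.38 after BaCl2 and -0.029 after glycerol, as a description over genes that share their libraries. The part of transcript length in the result after BaCl2 was not tested.

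**Figure D5:**
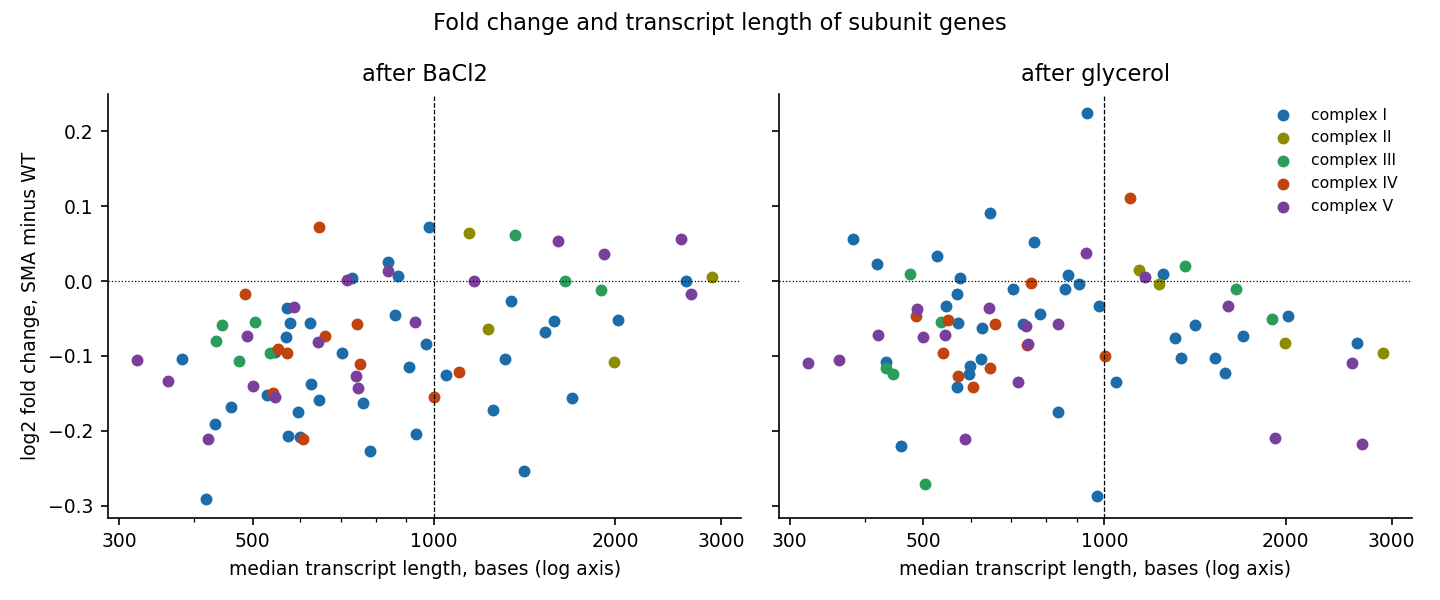
Log2 fold change (vertical axis, SMA minus WT) against the median transcript length (horizontal log axis, in bases) of subunit genes at 5 CPM or more, after BaCl2 (left) and glycerol (right), with a dashed line at 1000 bases. Over all subunit genes tested, the medians left and right of the line are -0.096 and -0.027 after BaCl2 and -0.057 and -0.077 after glycerol.

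Some members had levels that differed far more between the tables than between the genotypes. Relative to the median gene, the ratio of WT means, glycerol over BaCl2, was beyond 4-fold for 4 of 81 subunit genes, where 1.57% of all genes were. Ndufb8 was 8.84-fold higher after glycerol, Atp5po (the stalk subunit OSCP) 8.47-fold higher, Ndufb2 6.25-fold higher and Atp5mc2 at 0.0772 of its BaCl2 level. Ndufb8 stood at 4.94, 4.99 and 4.78 CPM in the SMA libraries and 6.14, 6.29 and 5.12 CPM in the WT libraries after BaCl2 and at 3776, 3459, 3428 and 3656 normalized counts in the SMA libraries and 3713, 3662, 3813 and 3712 normalized counts in the WT libraries after glycerol. In vM21, 47.9% of the exon bases of Atp5po are shared with another gene. Injury, batch and the way reads were counted cannot be told apart here, and levels were not tested across the tables.

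Other mitochondrial lists were read beside the subunits, with the same fits. Of all genes, 4.29% passed after BaCl2, 2.87% after glycerol and 3.8% between the injuries. Beside these shares, the counts of 0 or 1 below are not read as results on the lists. The 13 proteins encoded in the mitochondrial genome, the partners of these subunits, were tested after BaCl2 only: 0 of 13 passed, with a median of -0.0077, and near-identical nuclear copies make their counts uncertain. Assembly factors had 0 of 46 past the threshold after BaCl2 (median -0.052) and 0 of 48 after glycerol (median -0.030). Citric acid cycle enzymes had 0 of 19 in both, with medians of 0.0081 after BaCl2 and -0.087 after glycerol. Mitochondrial ribosomal proteins had 0 of 77 after BaCl2 (median 0.021) and 1 lower of 78 after glycerol (median -0.045), which was Mrpl17 at -0.28 (SE 0.06, adjusted p = 0.0384). Carriers and import genes had 0 of 20 after BaCl2 (median 0.056) and 1 lower of 19 after glycerol (median -0.093). This was Slc25a5, an ADP/ATP translocase that exchanges the ATP made by complex V, at -0.29 (SE 0.06, adjusted p = 0.0414), and it also passed the test between the injuries (adjusted p = 0.0287). Genes of coenzyme Q synthesis and cytochrome c had 0 of 15 after BaCl2 (median 0.055) and 1 higher of 15 after glycerol (median 0.0027), Coq8a at 0.86 (SE 0.15, adjusted p = 0.0316). Regulators of mitochondrial biogenesis had 0 of 18 in both (medians 0.051 after BaCl2 and -0.019 after glycerol), and glycolysis enzymes had 0 of 19 in both (medians 0.13 after BaCl2 and -0.023 after glycerol). Whether these lists differ from the subunits was not tested.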

How the data were processed

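Bulk RNA-seq of sorted FAPs was read from the authors' tables. The BaCl2 values are whole-number counts per gene and library as deposited; the glycerol signal values are normalized counts as deposited by the authors, with no counts recoverable and the depth unknown. Deposited log2 fold changes and p-values are the authors' own and are named where used, and columns of scores (6 of per-sample values) in the deposited BaCl2 table were not used. Per the submitters' processing notes, fastp, Salmon, featureCounts and DESeq2 were used; for their roles, the aligner, the build and the annotation, the entry is: not given in the sources used here.

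BaCl2 counts were scaled with TMM factors (CPM), filtered with filterByExpr and tested with edgeR 4.0.16; glycerol values were tested as log2(value + 1) with limma 3.58.1 and a mean-variance trend (R 4.3.3). At 1 CPM before TMM scaling a gene has 97.7 counts in the shallowest library, whose TMM factor was 1.05. Between the injuries, log2 fold changes were subtracted, divided by the root of the summed squared standard errors and referred to a t distribution with Welch-Satterthwaite degrees of freedom. P-values were adjusted by Benjamini and Hochberg over all genes tested. Tables were matched by gene identifier, since they spell some symbols differently. Alternatives included DESeq2 1.42.0, other factors, filters, pseudocounts, a replicate block and leaving out each library, and the tests were checked on simulated data. The members and lists were chosen with earlier results of these data known. Named genes are members past the threshold, the 2 smallest p of each complex and injury, and fixed catalytic and tissue-restricted subunits, of which 1 is not reported here; Ndufb2, Ndufb8, Ndufb4c, Cox7a2l, Atp5mc2 and Atp5po were added after their values were seen. GENCODE vM21 gave gene types and transcript lengths, and RefSeq GRCm38.p6 gave promoters; motif choice followed general knowledge.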

Additional observations from a re-analysis of the deposited data

Results flagged for a closer look

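Among 78 groups of 4 glycerol libraries examined (named genes and sums over complexes), 3 held a library far from the others, and chance flags about 1 in 20. Cox4i1 was lowest in SMA library 3, at 14618 normalized counts, while the other 3 SMA libraries held 15743 to 15769. Cox7a1 was highest in WT library 2, at 120 normalized counts, against 91.2 to 94.0 in the other WT libraries. The sum over the 4 members of complex II was lowest in WT library 2, at 28668 normalized counts.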

How the results depend on the processing

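After BaCl2 the count of members past the threshold was 1 and became 0 with RLE factors, with the replicate block and without SMA libraries 1 and 2 together, and it ranged from 0 to 1 without each library in turn; the 1 without SMA library 3 was Ndufa12-ps, a pseudogene that was higher. After glycerol the count was 1, became 2 with quantile normalization (Ndufb4 and Uqcrq) and 0 with no mean-variance trend or with the replicate block, and ranged from 0 to 5 without each library in turn. The 5, without SMA library 3, were Atp5f1b, Atp5mc1, Cox6c, Ndufa4 and Uqcrq, all lower, with 11.5% of all genes past the threshold in that fit. For the difference between injuries the count was 0, became 3 with the z test, stayed 0 with the replicate block and ranged from 0 to 2 without each library in turn; the 2, without SMA glycerol library 3, were Cox7a2l and Ndufa1. The causes were not tested. Shares over all genes are given here only for the glycerol fit without SMA library 3. The counts under the alternatives are therefore not read as results on the members. Same-numbered SMA and WT libraries correlated little (correlations of deviations -0.126 to 0.087 after BaCl2 and -0.0712 to 0.0714 after glycerol). SMA libraries 1 and 3 after BaCl2, and none after glycerol, correlated best with the WT library of their own number. With so few libraries this cannot exclude pairing. The median of each complex stayed below 0 under every alternative run: complex I ranged from -0.15 to -0.087 after BaCl2 and from -0.079 to -0.040 after glycerol, and complex V from -0.10 to -0.014 and from -0.091 to -0.062. Of the other values recomputed, 1894 were classed as unchanged, 86 moved, 9 gained and 18 lost a call, and none that had passed changed sign. For a gene, unchanged means the same call, not the same side of 0. Fold changes that did not pass could cross 0, such as that of Atp5mc1 after BaCl2 (-0.20 to 0.075 over the alternatives). Depth limits Cox6a2, Cox8b and the other low isoforms.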
